A study of Triticum turgidum subsp. durum with 20 samples.

Results

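A set of 58 gene models of durum wheat was lower at W2 than at every other stage sampled along the development of the young spike. They were chosen by a rule on stage means of CPM (the counts of a gene model scaled by the total of its library). A high-confidence gene model of the A genome, the B genome or the unanchored scaffolds (Un) was a member when its mean at each of the 4 stages other than W2 was at least 2 CPM and at least 1.5 times its W2 mean. Of 73680 high-confidence gene models 26943 had those 4 means at 2 CPM or more, and 58 of these were also below the fold limit at W2. The low W2 level is therefore the criterion of choice and not a finding, and calls against W2 are given once below, as a description from which nothing is read.

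RNA came from apices of Kronos, a tetraploid durum wheat. This cultivar flowers without a cold period, through a VRN-A1 allele that lacks part of intron 1, and its Ppd-A1a allele makes it less responsive to day length. Plants of all 5 groups were grown with 16 h of light at 23 °C and 8 h of dark at 17 °C and were harvested within the same hour of the day, and each stage has 4 libraries. The groups are defined by Waddington stage, from the vegetative meristem at W1 through double ridge (W2), glume primordium (W3.0) and lemma primordium (W3.25) to the terminal spikelet (W3.5), as the study's results name them. Its methods instead place the double ridge at W3.0 and an earlier form of it at W2, so stages are called by Waddington number here. Each library was a pool of whole apices, with some 20 apices for W1 or W2 libraries and some 12 for the others, so the pool size changes between W2 and W3.0 and cannot be told apart from the stage there. In such bulk samples fewer cells of a type and less RNA per cell cannot be told apart.

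As background, the shoot apical meristem is a dome of dividing cells that first forms leaves. When it becomes an inflorescence meristem the leaf ridges are suppressed and the ridges above them grow into spikelets, which gives the double ridge its name. Spikelet parts then arise in a fixed order, with glumes before lemmas and lemmas before floral organs.

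The libraries held 22229388 to 29655553 counts with a median of 25121584, and the 4 W2 libraries held 22229388 to 25715962. The stage labels were checked on genes that the study names. AP1-A3 (TraesCS2A02G261200), a MADS-box gene of the inflorescence, had a W1 mean of 1.09 ± 0.318 CPM, a W2 mean of 20.1 ± 3.80 and a W3.0 mean of 67.2 ± 3.23 (SD, n = 4 each). SVP-B2 (TraesCS7B02G080300), a MADS-box gene of the vegetative phase, had a W2 mean of 90.8 ± 8.41 CPM and a W3.5 mean of 18.7 ± 2.05 (SD, n = 4 each). The stem cell gene named as a putative TtCLV3 on 2A (TraesCS2A02G329300) averaged 0.166 CPM (SD 0.0426) at W1 and 0.392 CPM (SD 0.191) at W2. Its mean rose to 1.76 CPM (SD 0.346) by W3.0. A second gene of this putative name, TraesCS2B02G353000 on 2B, averaged 0.303 CPM (SD 0.103) at W1 and 0.309 CPM (SD 0.156) at W2. By W3.0 it had reached only 0.491 CPM (SD 0.172), and each of these means is over 4 libraries. Both genes were thus near 0 in the W1 and W2 apices, and only the 2A gene rose far beyond its spread by W3.0. A photosystem I subunit IV gene (TraesCS5B02G496000) was present in every stage, at 9.77 ± 2.56 CPM at W1 and 24.3 ± 2.11 at W2 (SD, n = 4 each). None of the 10 marker genes is a member.

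Members are given by identifier, since neither the count table nor the reference table used here pairs these identifiers with gene names or functions, and the readable part of the study's gene network names none of them. They lie on 15 sequences, with 29 on A chromosomes, 28 on B chromosomes and 1 on Un. Chromosome 7A holds 9 members (15.5%, against 7.35% of the 26943 gene models past the CPM limit) and 7B holds 2, against 6.4%. Members are shorter in the genome, with a median span of 2568 bp from 688 to 16049 bp, against a median of 4076 bp. They also carry fewer reads, with a median over all libraries of 5.24 CPM against 15.6 CPM, and 27 of them average under 5 CPM. Reads that overlap more than 1 gene model were not counted and strand was not used, and 7 members overlap another model.

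When the same rule was applied with another stage in the place of W2, 1214 gene models had their low point at W1 and 92 at W3.0. It lay at W3.25 in 6 and in 64 at W3.5. In 39 of the 58 members (67.2%) all 4 W2 libraries were below all 16 others, which was so in 0.531% of the 26943 gene models. The rule fixes most of this difference, so nothing is read from it. For 19 members at least 1 W2 library reached the level of another stage.

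**Figure D1:**
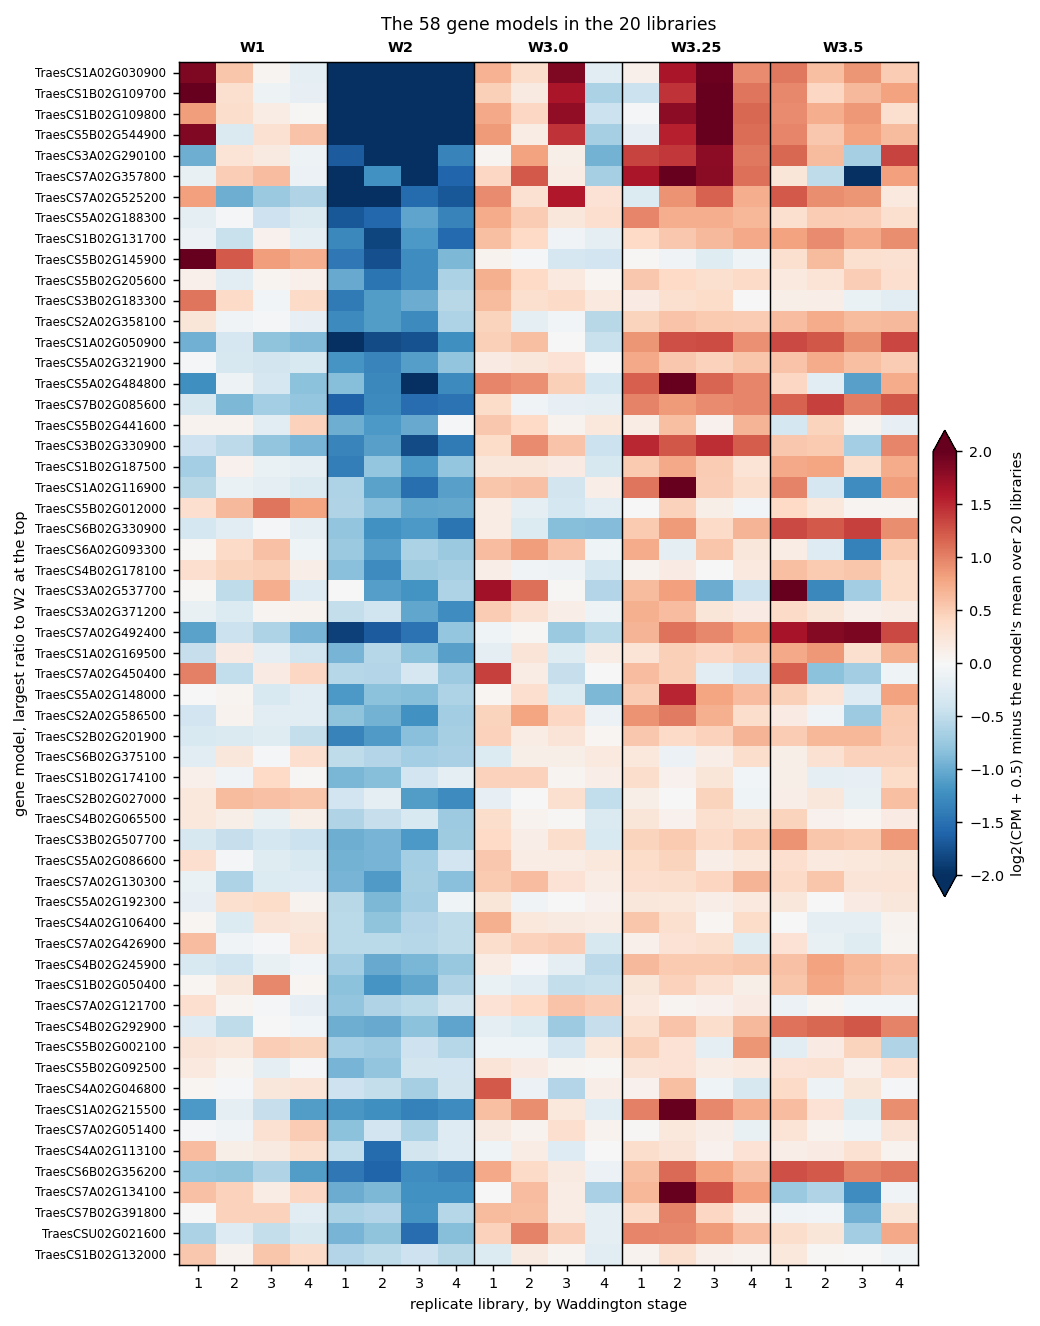
Level of the 58 gene models in each of the 20 libraries, as log2(CPM + 0.5) minus the mean of that gene model over all libraries (blue below, red above, colour limited to 2 either way). Gene models are ordered from the largest to the smallest ratio of the lowest other stage mean to the W2 mean, from 249 at the top to 1.51 at the bottom, and the columns within a stage are replicates 1 to 4. The W2 block is mostly blue because the rule requires low W2 means, whereas the streaks within the other stages mark single libraries that are high or low across several gene models.

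The depth of the dip differed widely. The median ratio of the lowest other stage mean to the W2 mean was 1.74, and 14 members reached 2, 9 reached 3, 5 reached 5 and 4 reached 10. The 3 largest ratios belong to models that were all but absent at W2, with 2 to 8 counts over the 4 W2 libraries. The other 55 were still counted at W2, and only 4 of them had fewer than 100 counts there.

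TraesCS1A02G030900 had the largest ratio and lies on chromosome 1A from 14253391 to 14257167 on the minus strand (IWGSC RefSeq v1.0, gene models v1.1). Its W2 libraries held 1, 1, 1 and 0 counts, whereas the W1 libraries held 488, 173, 113 and 110. The W3.0 libraries held 172, 151, 457 and 86 counts, the W3.25 libraries 123, 331, 540 and 218, and the W3.5 libraries 239, 166, 247 and 151. In depth-adjusted counts W1 exceeded W2 by a ratio of 261, with an exact 95% interval from 89.2 to 1270 that covers counting error only. The lowest library outside W2 thus held 86 counts and the highest W2 library 1, while the libraries outside W2 spanned a wide range among themselves.

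Directly adjacent on chromosome 1B lie TraesCS1B02G109700 (121761027 to 121763665) and TraesCS1B02G109800 (121763672 to 121770455), both on the minus strand with 6 bases between them. TraesCS1B02G109700 had 0, 0, 2 and 0 counts at W2 and 386, 98, 67 and 74 at W1. Its W3.0 libraries held 100, 89, 268 and 40 counts and its W3.25 libraries 53, 201, 410 and 165. The ratio of W1 to W2 was 277 with an exact 95% interval from 76.4 to 2294, again for counting error only. TraesCS1B02G109800 had 4, 1, 3 and 0 counts at W2 against 215, 138, 113 and 120 at W1, a ratio of 65.0 with an interval from 32.8 to 151. They are the only members that are neighbours in the annotation, and a read across both would not have been counted for either. TraesCS1B02G131700 and TraesCS1B02G132000, also on 1B, are 481432 bases apart with 2 high-confidence models between them.

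TraesCS5B02G544900 (5B, 697377146 to 697381642) was the fourth, and the only model of the 4 with more than 10 counts in each W2 library. It had 40, 26, 32 and 32 counts at W2, or 1.62, 1.01, 1.44 and 1.30 CPM. Its W1 libraries were at 52.2, 11.4, 17.6 and 21.1 CPM, its W3.0 libraries at 25.7, 15.6, 39.2 and 8.74, and its W3.25 libraries at 12.4, 42.5, 70.3 and 31.1. At W3.5 the values lay between 20.7 and 28.3 CPM. No W2 library came near any other library, yet within W3.25 the highest library was several times the lowest.

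Gene models near these loci were counted at W2. Within 200 kb of the 1B pair, the low-confidence model TraesCS1B02G182000LC, 4164 bases from TraesCS1B02G109800, averaged 5.87 ± 0.440 CPM at W2 (SD, n = 4) and 5.88 CPM at W1. Of the 6 models with reads within 200 kb of TraesCS1A02G030900, the lowest other mean was between 0.456 and 1.16 times the W2 mean. Around TraesCS5B02G544900 the 3 models with reads gave 0.564 to 0.728. Near TraesCS3A02G290100, the member with the next ratio, the 5 models with reads gave 0.590 to 2.12. The value of 2.12 belongs to TraesCS3A02G290300, which averaged 0.312 ± 0.144 CPM at W2 (SD, n = 4) and 0.733 CPM at W1. Around TraesCS7A02G357800 there were 0 models with reads.

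The next ratios were 5.56 in TraesCS3A02G290100, 3.68 in TraesCS7A02G357800 and 3.47 in TraesCS7A02G525200. TraesCS3A02G290100 (3A, 519082842 to 519086016) was at 0.648, 0.311, 0.225 and 0.936 CPM at W2 and at 1.36, 3.91, 3.62 and 2.89 CPM at W1. Its W3.25 libraries were at 8.79, 9.23, 12.1 and 7.08 CPM. All W2 libraries were below all others, although W1 replicate 1 and W3.0 replicate 4 (1.38 CPM) came close to W2 replicate 4.

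TraesCS7A02G357800 (7A, 526784744 to 526788380) was at 1.26, 2.57, 1.21 and 1.87 CPM at W2 and at 21.6, 29.2, 24.4 and 14.8 CPM at W3.25. Its W3.5 libraries were at 7.89, 4.51, 1.01 and 12.0 CPM. W3.5 replicate 3 was thus below every W2 library, so the stages overlap although the means differ. TraesCS7A02G525200 (7A, 707806377 to 707807397) was at 2.63 to 4.14 CPM at W2 and at 23.5, 6.42, 7.60 and 8.43 CPM at W1.

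TraesCS5A02G188300, TraesCS1B02G131700 and TraesCS5B02G145900 complete the 10 largest ratios, at 3.13, 3.01 and 2.87. None of the 3 had a W2 library as high as any other library. TraesCS5A02G188300 was at 0.486 to 1.03 CPM at W2, with the lowest library outside W2 at 1.91 CPM. For TraesCS1B02G131700 the W2 libraries held 0.817 to 1.62 CPM and the lowest other library 2.96 CPM.

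**Figure D2:**
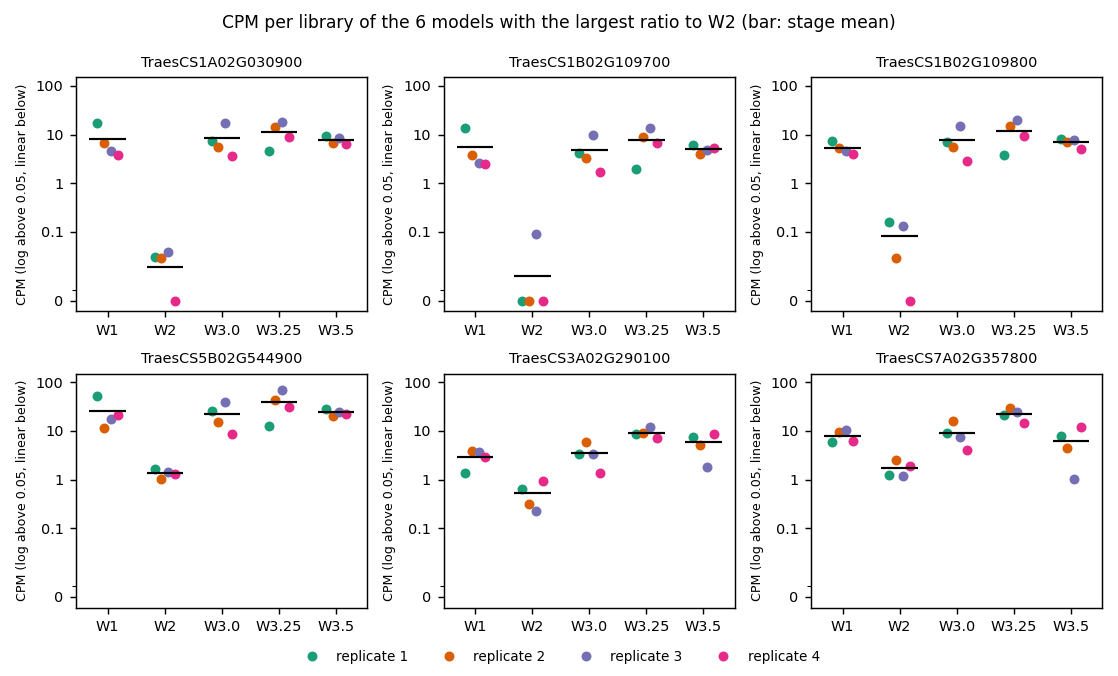
CPM in each library of the 6 gene models with the largest ratio to W2, by stage, on an axis that is logarithmic above 0.05 CPM and linear below; the bar is the stage mean and the colour the replicate number. The first 3 models hold 0 to 4 counts in each W2 library. Replicate 1 at W1 and replicate 3 at W3.0 and W3.25 are the highest libraries in the first 4 models, and W3.5 replicate 3 of TraesCS7A02G357800, at 1.01 CPM, is below all of its W2 libraries.

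Among the members with the most reads the dip was shallower. TraesCSU02G021600, the only member on Un (23524166 to 23525558), had the highest mean CPM, 101. Its W2 libraries were at 46.7, 50.7, 30.6 and 49.2 CPM and its W1 libraries at 57.6, 74.5, 64.1 and 71.7. The W3.0 libraries held 123, 177, 125 and 78.1 CPM and the W3.5 libraries 114, 106, 54.6 and 151. All W2 libraries were below all others, but by little against W3.5 replicate 3 (54.6 CPM) and W1 replicate 1 (57.6 CPM).

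TraesCS5A02G086600 (5A) and TraesCS5B02G092500 (5B) had W2 libraries below all others. TraesCS5A02G086600 was at 19.5, 19.6, 23.4 and 29.0 CPM at W2 and at 30.7 to 55.6 CPM in all other libraries. Its W1 mean was 36.9 ± 7.96 CPM, its W3.0 mean 45.8 ± 6.58, its W3.25 mean 46.6 ± 4.70 and its W3.5 mean 45.1 ± 2.09 (SD, n = 4 each). TraesCS5B02G092500 was at 18.4, 20.3, 27.4 and 27.2 CPM at W2 and at 31.3 to 45.1 CPM in the libraries of the other stages. In both, W2 replicates 3 and 4 were higher than replicates 1 and 2. Neither was called in any comparison that leaves out W2.

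The remaining members with high counts were TraesCS2A02G586500, TraesCS7B02G391800, TraesCS1A02G050900 and TraesCS6B02G356200, besides TraesCS5B02G544900. TraesCS2A02G586500 was at 17.5 to 25.2 CPM at W2, and its W3.5 replicate 3, at 24.5 CPM, fell inside that range. TraesCS7B02G391800 was at 7.65 to 11.9 CPM at W2, and its W3.5 replicate 3 was again inside that range.

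Just inside the fold limit were TraesCS7B02G391800 with a ratio of 1.516, TraesCSU02G021600 with 1.511 and TraesCS1B02G132000 with 1.510. Just outside were TraesCS3B02G304300 with 1.495, TraesCS1A02G277000 with 1.491 and TraesCS7A02G524900 with 1.489. TraesCS3B02G304300 averaged 5.35 ± 0.357 CPM at W2 and 8.00 ± 0.992 at W1, and TraesCS7B02G391800 10.7 ± 2.03 and 16.2 ± 5.19 CPM at W2 and W3.5 (SD, n = 4 each). Models on both sides of the limit thus had much the same ratio, and the spread between libraries was wide beside the gap between them.

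What the members did apart from W2 was tested between the other stages. A member was called when DESeq2 (Wald test) and edgeR (quasi-likelihood test) gave it the same direction and each an adjusted p no higher than 0.01 (Benjamini-Hochberg, over all 48336 gene models tested). All 58 members passed the filter on low counts, which their CPM limit ensures, and the rule sets no order between the stages compared. Log2 fold changes, standard errors (SE) and adjusted p-values of single members are those of edgeR, and the adjusted p of DESeq2 was also at most 0.01 in every call named. Of the 58 members 30 were called in none of the 5 comparisons without W2 and 28 in at least 1. The same share over all models was not computed. From W1 to W3.5 alone, 23775 of the 48336 models were called, so 28 members are not read as an excess. For the contrasts that the rule used, 50 members were called lower and 0 higher at W2 than at W1, against 14.6% lower and 8.3% higher among all models tested and 17.1% lower and 8.78% higher among the high-confidence models past the CPM limit. At W3.0, 48 were called higher than at W2, against 7.64% of all models and 7.76% of those past the CPM limit. The rule fixes these counts.

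From W1 to W3.0, the step across the dip, 9 members were called higher (15.5%, against 19.3% of all gene models tested) and 7 lower (12.1%, against 24.7%). Their median log2 fold change was 0.07, against 0.03 over all models. Without W1 replicate 4 the calls were 4 higher and 6 lower. The other 42 members were not called, which does not show that W1 and W3.0 levels were equal.

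TraesCS5B02G145900 (5B, 273146475 to 273147893) had the largest fall. Its W1 libraries were at 13.4, 7.48, 5.57 and 5.17 CPM and its W3.0 libraries at 3.08, 2.81, 2.21 and 2.13. W1 and W3.0 do not overlap, and both lie above the W2 libraries, which were at 0.506 to 1.34 CPM. The log2 fold change was -1.78 with an SE of 0.24 (edgeR, adjusted p = 4.23e-07), and the call was kept whichever library was left out. From W1 to W3.5 it was also called, with a log2 fold change of -1.19 (edgeR, adjusted p = 5.69e-05).

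TraesCS5B02G012000 (5B, 11764765 to 11774531) fell from 3.63, 4.60, 6.36 and 5.17 CPM at W1 to 3.13, 2.36, 2.06 and 2.30 at W3.0. The log2 fold change was -1.15 with an SE of 0.17 (edgeR, adjusted p = 2.38e-06), with no overlap between the stages. It overlaps another gene model, so reads in the shared stretch were not counted. TraesCS1B02G050400 (1B, 30543633 to 30547236) fell by 0.87 on the log2 scale (SE 0.17, edgeR, adjusted p = 6.98e-05). Its W1 libraries were at 6.90, 7.94, 13.5 and 6.94 CPM and its W3.0 libraries at 4.67 to 6.08 CPM, and it rose again from W3.0 to W3.5 by a log2 fold change of 0.95 (edgeR, adjusted p = 0.000202).

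TraesCS2B02G027000, TraesCS1B02G132000 and TraesCS4B02G178100 also fell, with log2 fold changes of -0.74, -0.68 and -0.62. TraesCS4B02G178100 was at 7.31 to 9.47 CPM at W1, at 5.10 to 7.31 CPM at W3.0 and at 8.67 to 10.4 CPM at W3.5. Its rise from W3.0 to W3.5 was called as well, at 0.59 on the log2 scale (edgeR, adjusted p = 0.00111), and its means climbed at each step after W2. The call of TraesCS2B02G027000 was lost without W1 replicate 2, W3.0 replicate 1 or W3.0 replicate 4 (edgeR, adjusted p = 0.0103, 0.0106 and 0.0187).

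Of the members that rose across the dip, TraesCS3B02G330900 (3B, 536048934 to 536049636) had a log2 fold change of 1.12 with an SE of 0.29 (edgeR, adjusted p = 0.00173). It was at 1.80 to 2.79 CPM at W1 and at 5.15, 7.98, 6.02 and 2.76 CPM at W3.0, so W3.0 replicate 4 fell inside the W1 range. The call was lost without W1 replicate 3 or 4 or W3.0 replicate 2 or 3. TraesCS6B02G356200 (6B, 624495761 to 624497229) rose from 13.6, 13.3, 15.4 and 10.6 CPM at W1 to 40.5, 31.0, 26.9 and 21.7 at W3.0, with no overlap. Its log2 fold change was 1.04 with an SE of 0.15 (edgeR, adjusted p = 1.39e-06), and it kept this call whichever library was left out.

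TraesCS1A02G215500 (1A, 381096100 to 381098610) was at 6.34, 12.7, 10.5 and 6.49 CPM at W1 and at 22.5, 28.3, 17.0 and 12.5 CPM at W3.0. The log2 fold change was 1.03 with an SE of 0.29 (edgeR, adjusted p = 0.00413), and W3.0 replicate 4 fell inside the W1 range. Its call survived in only 6 of the 20 fits that left out a library. TraesCS1A02G050900 (1A, 32454117 to 32455183) rose from 11.7, 18.4, 13.1 and 12.4 CPM at W1 to 32.4, 35.4, 23.1 and 16.9 CPM at W3.0, a log2 fold change of 0.81 with an SE of 0.19 (edgeR, adjusted p = 0.000536). Its W3.0 replicate 4 fell inside the W1 range, and the call was lost without W1 replicate 1 or 4 or W3.0 replicate 1 or 2. TraesCS5A02G188300 and TraesCS7A02G130300 rose by log2 fold changes of 0.65 and 0.64, both without overlap between W1 and W3.0.

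None of the 4 models with the largest ratios was called from W1 to W3.0. Their log2 fold changes were -0.07 with an SE of 0.42 in TraesCS1A02G030900, -0.37 with 0.49 in TraesCS1B02G109700, 0.37 with 0.38 in TraesCS1B02G109800 and -0.35 with 0.41 in TraesCS5B02G544900. The SEs, from 0.38 to 0.49, were larger than those of the members called, so the lack of a call does not show equal levels. The size of change that could have been called in these models was not computed. They were not called in the 4 other comparisons either.

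From W3.0 to W3.25, 5 members were called higher (8.62%, against 0.474% of all gene models tested) and 0 lower (against 0.348%). Among the 26943 high-confidence models past the CPM limit the share called higher was 0.367%. The median log2 fold change of the members was 0.33, against -0.00 over all models, and 47 of the 58 had a positive value. The share of positive values over all models was not computed. Members also share low libraries, such as W3.0 replicate 4, the lowest W3.0 library in 40 members, so these signs are not separate cases. At an unadjusted p under 0.05 the count was 26 members in either direction. The share of all models at that limit was not computed, so nothing is read from this count. Of the 2 tools, edgeR alone called 8 members (407 of all 48336 models tested) and DESeq2 alone 5 (642 of all models). Without W3.0 replicate 1 or replicate 2 the count called by both was 8.

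The 5 were TraesCS7A02G492400, TraesCS6B02G330900, TraesCS7B02G085600, TraesCS4B02G292900 and TraesCS4B02G245900, with log2 fold changes of 1.29, 1.12, 0.98, 0.92 and 0.69. Each kept its call whichever of the 20 libraries was left out. In each of them every W3.25 library was above every W3.0 library. The same 5 were called from W3.0 to W3.5.

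From W3.25 to W3.5, 1 member was called higher (0.288% of all models were) and 1 lower (0.414%). TraesCS4B02G292900 (4B, 578223909 to 578227846) rose by a log2 fold change of 0.64 with an SE of 0.11 (edgeR, adjusted p = 0.00145), a call that was lost without W3.25 replicate 1 or W3.5 replicate 3 (edgeR, adjusted p = 0.0123 and 0.0131). TraesCS7A02G134100 (7A, 85911103 to 85915219) fell from 5.81, 21.7, 9.18 and 6.52 CPM to 1.87, 2.13, 1.18 and 3.28 CPM. Its log2 fold change was -2.40 with an SE of 0.34 (edgeR, adjusted p = 0.000166), and at W3.5 replicate 3 was below all its W2 libraries, which were at 1.21 to 1.63 CPM. The count of members called at this step was 1 without W3.25 replicate 1 or W3.5 replicate 3 and 5 without W3.5 replicate 4. At an unadjusted p under 0.05 it was 23, most of which did not pass the adjustment. The share of all models at that limit was not computed here either, so nothing is read from it.

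Over the whole span from W3.0 to W3.5, 12 members were called higher (20.7%, against 2.86% of all models) and 1 lower (1.72%, against 3.41%). Among the high-confidence models past the CPM limit these shares were 2.66% and 4.57%. TraesCS7A02G492400 (7A, 681011336 to 681015619) had the largest rise. It was at 4.01, 4.38, 2.35 and 2.80 CPM at W3.0, at 7.20, 9.66, 8.87 and 7.75 at W3.25 and at 14.5, 16.6, 17.1 and 11.4 at W3.5. The log2 fold change from W3.0 to W3.5 was 2.09 with an SE of 0.19 (edgeR, adjusted p = 2.22e-08), and the 3 stages do not overlap. Its W2 libraries, at 0.811 to 2.32 CPM, overlap its W1 libraries, at 1.78 to 3.04 CPM.

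TraesCS6B02G330900 (6B, 581079293 to 581082545) rose by a log2 fold change of 1.73 with an SE of 0.18 (edgeR, adjusted p = 2.35e-07), from 4.39, 3.15, 1.94 and 1.92 CPM at W3.0 to 10.5, 9.80, 10.9 and 7.87 at W3.5. TraesCS4B02G292900 rose by 1.55 with an SE of 0.12 (edgeR, adjusted p = 5.23e-10), from 4.00 to 6.13 CPM at W3.0 to 14.4 to 17.1 CPM at W3.5. TraesCS7B02G085600 (7B, 97679299 to 97680335) rose by 1.22 with an SE of 0.13 (edgeR, adjusted p = 1.17e-07), and its W3.5 libraries were at 13.9, 15.9, 12.5 and 14.6 CPM. In these 3 members, too, W3.0 and W3.5 do not overlap. The member that fell was TraesCS7A02G121700, by 0.60 on the log2 scale (edgeR, adjusted p = 0.00324), a call that was lost without W3.0 replicate 3 or 4 or W3.5 replicate 1 or 3.

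From W1 to W3.5, 16 members were called higher (27.6%, against 22.3% of all models) and 5 lower (8.62%, against 26.9%). Among the high-confidence models past the CPM limit 21.3% were called higher. The largest rise was again in TraesCS7A02G492400, with a log2 fold change of 2.47 and an SE of 0.20 (edgeR, adjusted p = 5.97e-11). TraesCS6B02G356200, TraesCS7B02G085600 and TraesCS1A02G050900 followed with 1.80, 1.80 and 1.78. TraesCS7A02G134100 fell the most, with a log2 fold change of -1.41 and an SE of 0.36 (edgeR, adjusted p = 0.00149), a call lost without W1 replicate 1 or W3.5 replicate 3.

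**Figure D3:**
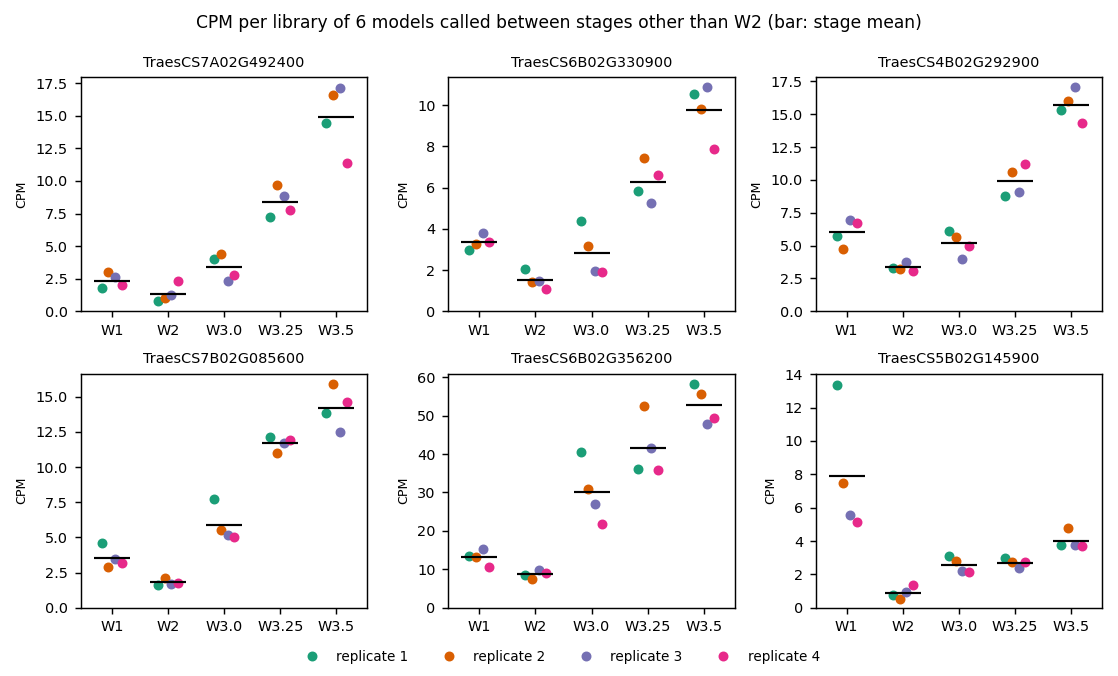
CPM in each library of 6 gene models called between stages other than W2, by stage, on linear axes that start at 0; the bar is the stage mean and the colour the replicate number. In the first 5 models the W3.5 mean is the highest, up to 14.9 CPM in TraesCS7A02G492400 and 52.8 CPM in TraesCS6B02G356200. In TraesCS5B02G145900 W1 is highest, at 7.90 CPM on average, and replicate 1 stands at 13.4 CPM.

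Over the 3 successive steps without W2, 37 members were called at none of them. This count was not made over all models, of which 21247 of 48336 were called from W1 to W3.0 alone. A rise from W1 to W3.0 followed by no further call was found in 8 members and a fall followed by none in 7. TraesCS7B02G085600 rose at the first step and again at W3.25, and TraesCS4B02G292900 rose at both later steps. By stage means, 25 members were highest at W3.25, 19 at W3.5, 7 at W1 and 7 at W3.0. As shares, 43.1% of the members were highest at W3.25 (11.5% of the 26943 gene models), 32.8% at W3.5 (37.1%), 12.1% at W1 (26.5%) and 12.1% at W3.0 (13.8%). For the members the rule leaves the choice among 4 stages.

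Replicate libraries of a stage differed more in the members than in other gene models. The median SD of log2(CPM + 0.5) over the 4 libraries was largest at W3.0, with 0.30, and was 0.24 for W1, 0.26 for W2 and 0.20 for both W3.25 and W3.5. In the 26943 models it was 0.13 for W1 and 0.09 for each later stage. Low counts alone widen such a spread, so the values were also set side by side by level. Averaged over the 4 stages other than W2, the median SD of members was 0.23 (n = 27) against 0.16 in other models at a mean of 2 to 5 CPM, 0.26 (n = 24) against 0.12 at 5 to 20 CPM, and 0.30 (n = 7) against 0.08 at 20 CPM or more. A spread of more than 3-fold between the libraries of at least 1 stage other than W2 was found in 15 members (25.9%), against 0.49% of the 26943 models. Models with a wide spread pass limits on stage means more easily, so these values describe the members and were given no test.

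The widest spread was in TraesCS3A02G537700 (3A, 749281842 to 749283643). Its W3.5 libraries were at 22.7, 1.44, 2.43 and 5.60 CPM and its W3.0 libraries at 14.8, 9.66, 4.34 and 2.68, while W2 was at 4.21, 1.71, 1.57 and 2.60 CPM. The stages overlap, and W3.5 replicates 2 and 3 were below W2 replicate 1, although the W2 mean of 2.53 CPM was the lowest. TraesCS4A02G046800 was at 22.1 CPM in W3.0 replicate 1 and at 8.39, 5.94 and 10.04 CPM in the other W3.0 libraries.

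Which library was low was shared by many members. At W3.0, replicate 4 was the lowest of the 4 libraries in 40 of the 58 members (69.0%), against 26.6% of the other gene models past the CPM limit, and the highest in 2. Replicate 1 was the highest in 28 (48.3%, against 26.8%). At W3.5, replicate 3 was the lowest in 27 members (46.6%, against 25.1%), and at W2 replicate 4 was the highest in 25 (43.1%, against 24%). Members that vary together count repeatedly in these shares. W1 replicate 1 also departed from its stage outside the members. Among the other models past the CPM limit it was the lowest W1 library in 41.4% and the highest in 29.7%. For the members these shares were 29.3% and 36.2%.

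W3.0 replicate 4 was not an outlying library in depth, with 23904496 counts against 23667677 in replicate 1. Over all models, however, it differed more from the other W3.0 libraries than they did from each other. The chi-square per model was 3.42 to 4.32, against 2.35 to 3.21 among the others. In W3.0 replicates 1 to 4 SVP-B2 was at 37.7, 44.5, 48.9 and 51.2 CPM and AP1-A3 at 71.1, 68.5, 64.5 and 64.5 CPM. Replicate 3 was close to replicate 4 in these markers but not in all. In replicates 3 and 4, LFY (TraesCS2B02G464200) was at 36.4 and 40.3 CPM and PI-A1 (TraesCS1A02G264300) at 5.05 and 5.86 CPM. The photosystem I subunit IV gene TraesCS5B02G496000 was at 20.9 and 17.5 CPM. Replicate 3 was the lowest library in 14 members. The part of developmental stage within W3.0 in the low values of the members was not tested. Without this library the rule found 64 models, of which 57 are among the 58. Of the members, 16 were then called between W1 and W3.0, 5 between W3.0 and W3.25 and 10 between W3.0 and W3.5.

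**Figure D4:**
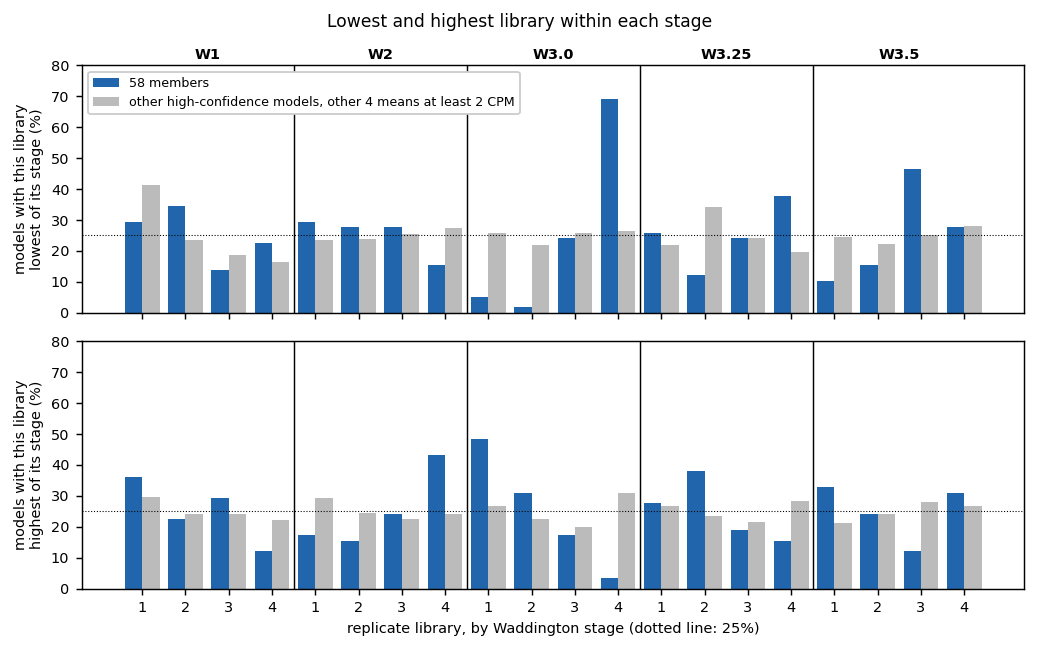
Share of gene models in which a given library was the lowest (upper panel) or the highest (lower panel) of the 4 libraries of its stage, for the 58 members in blue and for the other high-confidence models with the same CPM limit in grey. The dotted line marks 25%. W3.0 replicate 4 was lowest in 69.0% of the members against 26.6% of the others, and W3.5 replicate 3 in 46.6% against 25.1%.

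The deviations of the libraries from their own stage means were compared between members. The rule uses stage means only, but models with a wide spread pass it more easily, so it is not independent of these deviations. Over 1653 pairs of members the median Pearson's r across the 20 libraries was 0.18, and 31 pairs (1.88%) reached 0.8. Of all pairs of the 26943 models, which were not matched to the members in level or spread, 0.231% did. The points of each correlation share the library, its depth and its pool of apices, so r is given as a description. Average linkage at r of 0.5 placed 47 members in 11 sets of at least 2, and the 3 largest are described. The sets were formed on these values and are given no test.

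The first set has 6 members, with a median r of 0.87 from 0.54 to 0.97 (Spearman's rho 0.49 to 0.95), and holds the 4 models with the largest ratios to W2. TraesCS7A02G525200 and TraesCS7A02G426900 complete it. All 6 were above their stage mean in W1 replicate 1, by 1.03 on the log2 scale on average, in W3.0 replicate 3 by 0.94 and in W3.25 replicate 3 by 0.76. None of the 6 was above it in W3.0 replicate 4, at -0.86 on average, or in W3.25 replicate 1, at -1.02. Without the 4 W2 libraries the median r was 0.89, and without the 2 farthest libraries it was 0.77, with a lowest r of 0.46.

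The gene models most like TraesCS1A02G030900 in this measure were TraesCS1B02G109700 with r of 0.97 (0.95 without the 2 libraries farthest from the median) and TraesCS1A02G041200LC, a low-confidence model, with r of 0.96. Next came TraesCS1A02G035800, with r of 0.94. TraesCS1A02G035800 is not a member and was well counted at W2, with 63.7, 63.5, 60.3 and 61.0 CPM, against 148, 82.9, 75.2 and 78.0 CPM at W1. Its W3.0 libraries were at 64.5, 61.8, 86.6 and 54.6 CPM. Its highest library at W1 and at W3.0 was that of the set, while its W2 level was close to that of W3.0.

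A second set has 12 members with a median r of 0.76 from 0.18 to 0.94 (Spearman's rho 0.02 to 0.90). After leaving out the 2 farthest libraries its median r was 0.61 and its lowest r -0.21. It holds TraesCS3A02G290100, TraesCS7A02G357800, TraesCSU02G021600, TraesCS2A02G586500, TraesCS7B02G391800, TraesCS3B02G330900, TraesCS1A02G215500 and TraesCS7A02G134100 among others. All 12 were below their stage mean in W3.5 replicate 3, by 0.98 on the log2 scale on average, in W3.0 replicate 4 and in W3.25 replicate 4. All 12 were above it in W3.5 replicate 4, W3.0 replicate 2 and W1 replicate 2. In W3.25 replicate 2 several stood far out, with TraesCS1A02G215500 at 65.1 CPM against 24.5 to 29.8 CPM in the other W3.25 libraries, and TraesCS5A02G484800 at 29.1 against 7.91 to 9.24 CPM.

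The third set has 6 members, TraesCS5B02G145900, TraesCS3B02G183300, TraesCS5A02G321900, TraesCS5A02G086600, TraesCS7A02G121700 and TraesCS5B02G092500, with a median r of 0.66 from 0.50 to 0.84 (Spearman's rho 0.33 to 0.82). All 6 were above their stage mean in W1 replicate 1 and in W2 replicate 4, and below it in W2 replicates 1 and 2. Its median r fell to 0.39 once the 2 farthest libraries were left out, so it rests largely on them.

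**Figure D5:**
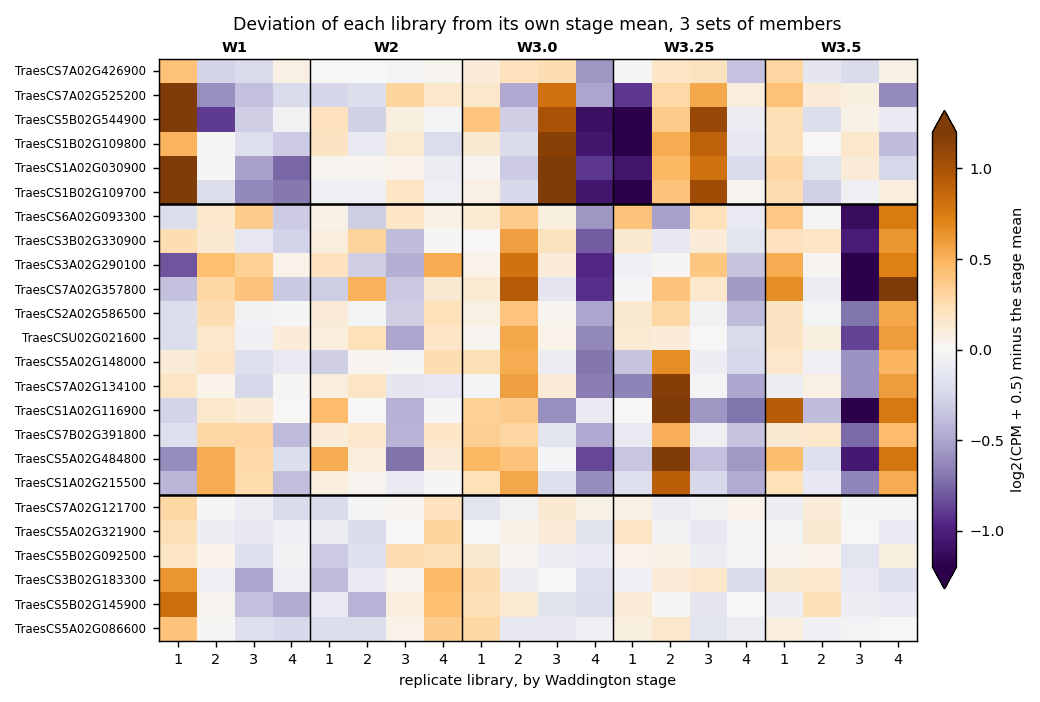
Deviation of each library from the mean of its own stage, on the log2(CPM + 0.5) scale, for the 6, 12 and 6 members of the 3 sets, separated by horizontal lines (orange above the stage mean, purple below, colour limited to 1.2 either way). The first set is high in W1 replicate 1 and in replicate 3 at W3.0 and W3.25. The second is low in W3.5 replicate 3, by 0.98 on average, and the third departs mostly at W1 and W2.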

How the data were processed

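Single reads of 100 bp from 20 libraries (5 stages, 4 replicates each, taken from the labels) had been trimmed, aligned with STAR 2.7.5 and counted with featureCounts 2.0.0 by the authors, who deposited raw read counts per gene model without normalization. Per the file headers, reads were counted over the whole gene span (IWGSC v1.1 models) at a mapping quality of at least 40, without strand. The 79047 D genome models held 0 counts and were left out, and 190381 models remained.

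CPM was computed on library totals of 22229388 to 29655553 counts. Tests used edgeR 4.0.16 (TMM, quasi-likelihood) and DESeq2 1.42.0 (Wald) in R 4.3.3, with stage as factor and all 20 libraries in a shared fit with 15 residual degrees of freedom. The filterByExpr function (minimum count 10, minimum total 15) kept 48336 models. The SE is the absolute log2 fold change over the square root of edgeR's F. Correlations used log2(CPM + 0.5) minus the stage mean. Python 3.11.15 was used for the rule and matplotlib 3.10.9 for plots. The rule and the tests were also run on simulated counts with the same dispersion for all models. The models changed in the run of the rule averaged over 20 CPM, whereas only 7 members reach 20 CPM. These runs thus do not cover members with a wide spread, nor, for the rule, most members.

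The members, the lists and the models to be named were chosen with earlier results of these data known. Named models were the 10 largest ratios to W2, the 8 highest mean CPM, the 6 largest rises and falls from W1 to W3.0, the 4 largest changes from W3.0 to W3.5, those at the fold limit and direct neighbours; others were named after their values were seen. Gene lists by annotation words and promoter motifs could not be applied, since the identifiers matched 0 entries of the reference table.

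All libraries of a stage differed by more than sampling noise, with at least 2.14 for chi-square per model. W1 replicate 1 stood apart over all models, with 9.92 to 11.4 against the other W1 libraries. The largest value of any other pair, 4.32, was between W3.0 replicates 1 and 4. The study calls the 4 libraries of a stage biological replicates, each a pool of apices, and p-values measure the spread between these pools. Intervals are exact, at 95%, and cover counting error only, since reads carry no molecular identifiers. Same-numbered libraries of different stages deviated together with a mean correlation of 0.011 over 40 pairs, so the numbers were not taken as pairs. Alternatives were another tool, normalization, filter, threshold, 2-fold minimum, fold limit, CPM limit, replicate block and each library left out.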

Additional observations from a re-analysis of the deposited data

Results flagged for a closer look

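Within the 4 libraries of a stage, 11 of 145 groups of values, over all stages of the 29 members that the naming rule chose, had a highest or lowest library that stood apart by Dixon's test. Chance alone gives about 1 in 20 groups, and members that vary together are not separate cases. Members named after their values were seen, such as TraesCS5A02G484800, were not examined in this way. W1 replicate 1 stood apart in TraesCS1B02G109700, at 13.5 CPM against 2.52 to 3.72 CPM, and in TraesCS7A02G525200, at 23.5 CPM against 6.42 to 8.43 CPM. W3.25 replicate 2 did so in TraesCS1A02G215500, at 65.1 CPM against 24.5 to 29.8 CPM, and in TraesCS1B02G132000, at 2.78 CPM against 2.26 to 2.34 CPM. At the same stage replicate 1 was high in TraesCS5A02G188300, at 5.81 CPM against 4.60 to 4.79 CPM.

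W1 replicate 3 of TraesCS1B02G050400 was at 13.5 CPM against 6.90 to 7.94 CPM, W3.0 replicate 1 of TraesCS5A02G086600 at 55.6 CPM against 41.9 to 43.8 CPM, and W3.5 replicate 2 of TraesCS5B02G145900 at 4.80 CPM against 3.70 to 3.78 CPM. At W2, replicate 3 of TraesCS7B02G391800 was low, at 7.65 CPM against 11.3 to 11.9 CPM. In 2 further W2 groups the distance amounts to 1 or 2 reads: replicate 4 of TraesCS1A02G030900 was at 0.0 CPM, where the others held 1 count each, and replicate 3 of TraesCS1B02G109700 was at 0.0900 CPM, its 2 counts, where the others held 0.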

How the results depend on the processing

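The number of models found by the rule moved with its limits, from 58 to 173 at a lower fold limit, 14 at a fold of 2, 98 at a limit of 1 CPM and 23 at 5 CPM. It was 51 to 72 with each library left out, and 32 members were found whichever library was left out. With TMM-scaled CPM it was 63, of which 48 are among the 58. With each library left out, the members called numbered 10 to 17 from W1 to W3.0, 5 to 8 from W3.0 to W3.25, 1 to 5 from W3.25 to W3.5, 9 to 16 from W3.0 to W3.5 and 19 to 23 from W1 to W3.5. Requiring a 2-fold change left 5, 2, 1, 4 and 10 calls in these comparisons. From W3.0 to W3.25, edgeR alone gave 8 calls, also with DESeq2 size factors, and an adjusted p of at most 0.05 gave 9. From W3.25 to W3.5 that threshold gave 5 calls and a fit of only the compared stages 5. Where the construction of a setting does not show it, the cause was not tested. No named change turned its direction. Of 57 calls over the 5 comparisons, 40 were kept without each of the 20 libraries and 18 under every setting.

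Same-numbered libraries showed little joint deviation (correlations of -0.112 to 0.188 over 40 pairs, 3 above 0.1). Those 3 were all among W3.0, W3.25 and W3.5. Low correlations cannot show that such libraries had no handling in common, which was not tested. With the replicate number as a block the members called were 14, 6, 2, 12 and 22 in the same order of comparisons.

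Depth limits the W2 values of the 4 deepest dips, where single libraries hold 0 to 40 counts. The same holds for other members, such as TraesCS3A02G290100 with 16, 8, 5 and 23 counts at W2 and TraesCS5A02G188300 with 12, 15, 23 and 19. Over the 4 W2 libraries together, 7 members held fewer than 100 counts.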

Other observations

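The rule was also applied to low-confidence gene models, which are no members, and found 3. TraesCS1A02G041200LC had 0 counts in all 4 W2 libraries and 6.14, 2.13, 1.55 and 1.19 CPM at W1. Its W3.0 libraries were at 1.61, 1.80, 4.67 and 1.17 CPM and its W3.25 libraries at 1.09, 4.44, 5.42 and 1.68 CPM, so W1 replicate 1 and replicate 3 at both later stages were its highest libraries, as in TraesCS1A02G030900. TraesCS1B02G547400LC and TraesCS2A02G543800LC had ratios of the lowest other mean to the W2 mean of 2.31 and 2.22.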
